A study of Mus musculus with 40 samples.

Results

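The 10 genes described here are repressors of the circadian clock, Per1, Per2, Per3, Cry1, Cry2, Nr1d1 and Nr1d2, and its output factors of the PAR-bZIP family, Dbp, Tef and Hlf. They were chosen by gene symbol, and all 10 were found among the 22676 genes of a table of left ventricular RNA from 40 FVB/NJ mouse libraries. All 10 also passed the filter on low values, a normalized count of at least 10 in at least 5 libraries, which 16395 genes met. ONOFF mice had an inducible transgene that was switched on in the heart and encoded dominant-negative OGA. OGA itself strips the sugar O-GlcNAc from proteins. Con mice served as controls, and doxycycline food was given to both genotypes. The food lasted 2 weeks, standard chow followed for 2 weeks, and surgery came next, either a sham procedure or a band around the transverse aorta (TAC) that raises the pressure load. Tissue was taken after 9 further weeks. The groups were ONOFF TAC, ONOFF Sham, Con TAC and Con Sham, each with 5 female (F) and 5 male (M) libraries. The labels used here do not give the promoter of the transgene, the alleles of the Con mice, the age of the mice, whether animals were pooled, or the hour at which tissue was taken. Values of p therefore measure the spread between libraries labelled as separate samples.

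In the mammalian clock, BMAL1 pairs with CLOCK or NPAS2 and binds E-box sequences in the genes for the PER and CRY repressors, for REV-ERBα and REV-ERBβ (Nr1d1 and Nr1d2) and for DBP. PER and CRY proteins then shut off BMAL1 and CLOCK, while the REV-ERB receptors hold down transcription of Bmal1 itself. DBP, TEF and HLF bind D-box sequences and pass the rhythm on to other genes, among them genes of fat and drug metabolism, and NFIL3 occupies the same sites as a repressor. In rodent heart these genes cycle over the day, with Dbp, Nr1d1 and Per transcripts in a phase opposite to Bmal1 and Cry1 later than the Per genes. Several clock proteins are known to carry O-GlcNAc, which was not measured in these libraries.

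Promoters are shown for the 3 genes called below (Hlf, Tef and Cry2), and for Dbp and Cry1, which stood on opposite sides of the correlations. RefSeq promoter windows (build GRCm38.p6, from 250 bases before to 50 after each start) matched 9 of the 10 genes, in 11 windows, and the 250 bases before the start are printed 5′ to 3′. The E-box CACGTG, the D-box TTATGTAA and the cAMP response element TGACGTCA were each searched on both strands, and capitals mark the matches. The only match in Hlf was a cAMP response element (minus strand, chr11:90390918-90391167). Tef had an E-box in each of its windows, and the first is shown (plus strand, chr15:81802423-81802672). Cry1 had 1 E-box (minus strand, chr10:85185055-85185304). Cry2 (minus strand, chr2:92434070-92434319) and Dbp (plus strand, chr7:45704997-45705246) held none of these letters.
Hlf: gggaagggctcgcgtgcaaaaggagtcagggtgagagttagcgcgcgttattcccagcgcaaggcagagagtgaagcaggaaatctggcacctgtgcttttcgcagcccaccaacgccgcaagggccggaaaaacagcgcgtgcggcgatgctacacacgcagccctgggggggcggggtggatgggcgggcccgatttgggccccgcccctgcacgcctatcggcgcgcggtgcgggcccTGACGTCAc
Tef: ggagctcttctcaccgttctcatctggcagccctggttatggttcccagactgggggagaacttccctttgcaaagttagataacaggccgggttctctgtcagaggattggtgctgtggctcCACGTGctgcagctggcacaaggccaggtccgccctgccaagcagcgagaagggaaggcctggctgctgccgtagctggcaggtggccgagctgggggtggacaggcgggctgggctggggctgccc
Cry1: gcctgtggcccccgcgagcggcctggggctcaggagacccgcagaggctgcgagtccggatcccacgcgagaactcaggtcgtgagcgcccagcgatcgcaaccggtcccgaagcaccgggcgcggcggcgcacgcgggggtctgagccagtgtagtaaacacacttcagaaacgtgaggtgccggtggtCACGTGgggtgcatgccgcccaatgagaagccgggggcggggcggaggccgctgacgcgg
Cry2: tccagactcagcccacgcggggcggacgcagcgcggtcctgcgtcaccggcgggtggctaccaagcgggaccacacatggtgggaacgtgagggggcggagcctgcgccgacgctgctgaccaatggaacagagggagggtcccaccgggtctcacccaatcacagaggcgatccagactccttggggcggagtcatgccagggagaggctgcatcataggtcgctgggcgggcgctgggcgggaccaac
Dbp: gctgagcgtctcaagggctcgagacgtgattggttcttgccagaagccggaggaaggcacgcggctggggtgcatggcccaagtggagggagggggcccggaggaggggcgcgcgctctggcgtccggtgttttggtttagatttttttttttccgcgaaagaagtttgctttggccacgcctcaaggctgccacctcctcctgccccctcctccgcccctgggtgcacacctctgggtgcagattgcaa
Over the full 300-base windows, E-boxes were found in 3 of the 9 matched genes (Cry1, Per1 and Tef), a D-box in 1 (Per3) and the cAMP response element in 1 (Hlf), while Cry2, Dbp, Nr1d1 and Nr1d2 had none of the 3. The same letters occurred in 7.15% (E-box), 0.938% (D-box) and 1.79% (cAMP response element) of all 32851 promoter windows of that length. No window of the 9 genes held the ROR element, searched as TAGGTCA or TGGGTCA on both strands and present in 6.45% of all windows. Bmal1, the textbook target of the REV-ERB receptors, had 1 such match in 1 of its windows. A match is a description of these letters and was not tested as a binding site.

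The library totals of the deposited values were 35176220 to 47653987. The 3 Con Sham libraries F 3, F 5 and M 4 had the most genes listed at 0, and 2 libraries labelled Con TAC F (replicates 2 and 3) had little Xist, the RNA that coats an inactive X chromosome. Oga was 1.77 times as high in ONOFF as in Con mice after sham surgery (log2 difference 0.83, adjusted p = 0.000295, limma), with medians of 5927 in ONOFF Sham and 3182 in Con Sham. With TAC in ONOFF mice Oga fell to 0.680 of its sham level (log2 change −0.56 ± 0.12, SE, adjusted p = 0.000413), with a median of 3537 in ONOFF TAC. ONOFF minus Con after TAC was 0.34 ± 0.12 for Oga and did not pass (adjusted p = 0.0645). Of 6 cardiomyocyte markers, 4 were lower and 1 was higher in ONOFF TAC than in ONOFF Sham. Their summed values were 1237000 to 1761000 in ONOFF TAC and 1670000 to 2626000 in ONOFF Sham. Myh6 made up the largest part of these sums, with medians of 760900 in ONOFF TAC and 1109000 in ONOFF Sham. The marker that rose was Actn2, with medians of 101100 and 84840. Of 5 fibroblast markers, 3 were higher, with sums of 57570 to 71900 in ONOFF TAC and 37480 to 54200 in ONOFF Sham. Dcn made up the largest part of these sums, with medians of 35570 in ONOFF TAC and 29000 in ONOFF Sham. Tcf21 went the other way without passing, with medians of 565.8 in ONOFF TAC and 675.6 in ONOFF Sham. For macrophages 1 of 4 markers was higher, and for Schwann cells 2 of 3 were lower. None of 4 endothelial, 4 smooth muscle and pericyte, 3 adipocyte and 3 atrial markers passed the test in that comparison. The smallest adjusted p of those 14 genes was 0.102. The atrial markers Myl7, Sln and Myl4 summed to 107.5 to 25990 in ONOFF TAC, 82.82 to 12880 in ONOFF Sham, 67.21 to 13570 in Con TAC and 68.38 to 12760 in Con Sham, so their level varied widely within every group. No cardiomyocyte, fibroblast, endothelial, smooth muscle or macrophage marker was at 0 in any library. In whole tissue, fewer cells of a type and less RNA per cell cannot be told apart.

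Hlf, the PAR-bZIP factor known in liver and heart as an activator of D-box genes, showed the largest change of the 10. Its normalized counts (lowest, median and highest library) were 272.0, 393.7 and 858.4 in ONOFF TAC, against 697.3, 1002 and 1561 in ONOFF Sham. In Con TAC they were 325.8, 604.4 and 1455, against 447.5, 640.0 and 1260 in Con Sham. Of the 10 ONOFF TAC libraries, 9 lay between 272.0 and 435.9, below every ONOFF Sham library, and only ONOFF TAC F 1, at 858.4, overlapped them. Hlf fell to 0.421 of its sham level in ONOFF mice, a log2 change of −1.25 with a standard error of 0.21 (95% interval −1.67 to −0.83). The adjusted p was 1.78e-05 (limma on log2(value + 1), averaged over both sexes, Benjamini-Hochberg over all genes tested), and all 10 ONOFF TAC libraries lay below the ONOFF Sham mean of their sex. It ranked 541 among 16395 genes by p. The fall held in all 53 alternatives tried, among them leaving out each of the 40 libraries, with log2 changes of −1.36 to −1.06. Leaving out a Con library can change only the spread shared by the groups in this comparison. Several cardiomyocyte and fibroblast markers moved between the same 2 groups, and their part in the changes of the 10 genes was not tested.

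In Con mice the effect of TAC on Hlf was −0.25 ± 0.21 (log2 change ± SE, adjusted p = 0.558), and 4 of 10 Con TAC libraries lay below, and 1 above, the Con Sham range. The difference between these 2 effects of TAC, the interaction, was −1.002 ± 0.29 with an unadjusted p of 0.00154 and an adjusted p of 0.114, which missed the threshold of 0.05. Ordered by median, Hlf was highest in ONOFF Sham, then Con Sham, Con TAC and ONOFF TAC. No pair of neighbours in that order passed: ONOFF minus Con was 0.49 ± 0.21 after sham surgery (adjusted p = 0.476) and −0.51 ± 0.21 after TAC (adjusted p = 0.132). ONOFF mice thus had the highest Hlf after sham surgery and the lowest after TAC, and neither difference from Con passed alone. Leaving out 1 library moved 2 of these calls. Without ONOFF TAC F 1, the difference after TAC was −0.63 (adjusted p = 0.0394) and the interaction −1.12 (adjusted p = 0.030), and without Con TAC F 4 the difference after TAC was −0.64 (adjusted p = 0.0456).

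Tef, a PAR-bZIP factor first known from the pituitary, was 1710, 2246 and 3935 in ONOFF TAC, against 2580, 2937 and 4188 in ONOFF Sham (lowest, median and highest). It was 2112, 2692 and 4000 in Con TAC, against 1724, 2348 and 3015 in Con Sham. In ONOFF TAC, 8 of 10 libraries lay below the lowest ONOFF Sham library, and ONOFF TAC F 1 and M 5 lay within the sham range. Tef fell to 0.780 of its sham level in ONOFF mice (log2 change −0.36 ± 0.12, adjusted p = 0.0225, limma). In Con mice its change was 0.22 ± 0.12 in the other direction (adjusted p = 0.306), and the interaction was −0.58 ± 0.17 (unadjusted p = 0.00126, adjusted p = 0.105). After sham surgery all 10 ONOFF libraries lay above the Con mean of their sex, by 0.34 ± 0.12 on the log2 scale (unadjusted p = 0.00627, adjusted p = 0.336). By median, Tef stood in the order ONOFF Sham, Con TAC, Con Sham and ONOFF TAC. Of the neighbours in that order, Con TAC and Con Sham were compared, and they did not differ past the threshold. The call in ONOFF mice was lost without ONOFF TAC F 3 (−0.30, adjusted p = 0.0606) and without ONOFF Sham F 5 (−0.30, adjusted p = 0.0607). Without ONOFF TAC F 1, Tef passed in ONOFF minus Con after TAC (−0.33, adjusted p = 0.0345) and in the interaction (−0.67, adjusted p = 0.0114).

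Dbp, the PAR-bZIP factor whose transcript swings most over the day in many tissues, was 389.6, 866.6 and 4762 in ONOFF TAC, against 567.8, 1876 and 5205 in ONOFF Sham. It was 773.6, 1484 and 3635 in Con TAC, against 449.9, 1361 and 3790 in Con Sham. The ranges of all 4 groups overlapped, and ONOFF TAC F 1 alone, at 4762, stood far above the next ONOFF TAC library (1431). The log2 change with TAC in ONOFF mice was −0.95 ± 0.42 (unadjusted p = 0.030, adjusted p = 0.109), that in Con mice 0.17 ± 0.42 (adjusted p = 0.876), and the interaction −1.12 ± 0.59 (adjusted p = 0.486). ONOFF minus Con after TAC was −0.85 ± 0.42 (adjusted p = 0.243), with 9 of 10 ONOFF libraries below the Con mean of their sex. The change in ONOFF mice passed the threshold without ONOFF TAC F 1 (−1.25, adjusted p = 0.0163) and without ONOFF Sham F 4 (−1.18, adjusted p = 0.0361). The plot of levels by group shows how far the libraries of each group spread.

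**Figure D1:**
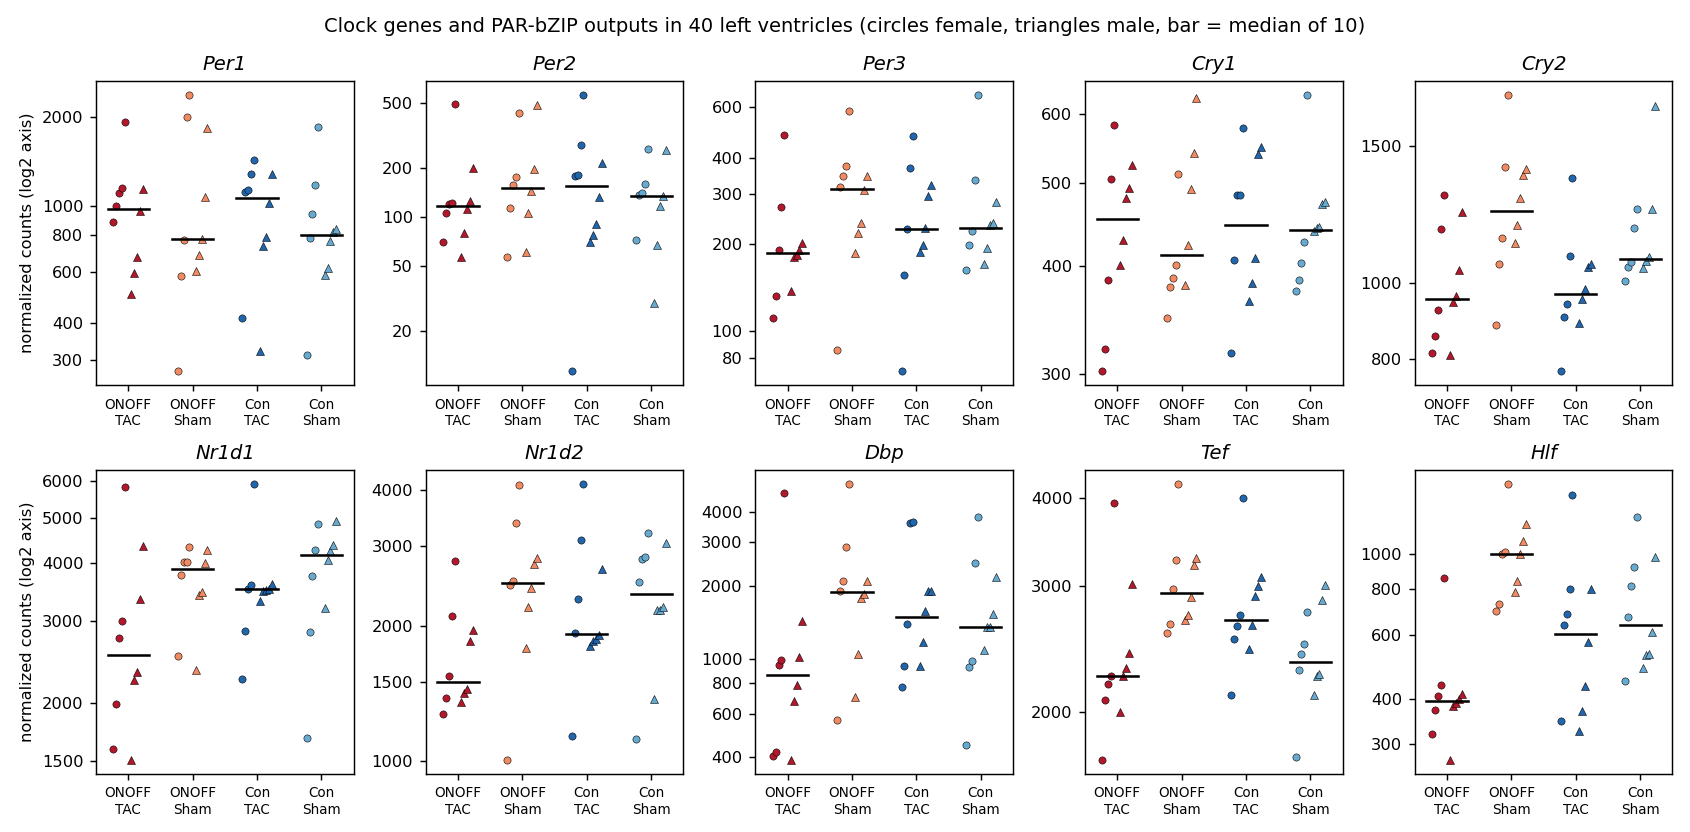
Normalized counts (log2 axis) of the 10 genes in each of the 40 libraries, with ONOFF TAC, ONOFF Sham, Con TAC and Con Sham from left to right, circles for females, triangles for males and a bar at the median of 10. In the Hlf panel 9 of 10 ONOFF TAC libraries, at 272.0 to 435.9, lie under all ONOFF Sham libraries, while in the Per2, Per3 and Dbp panels the groups overlap.

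Of the CRY repressors, Cry2 fell with TAC in ONOFF mice, while every change of Cry1 in the 4 comparisons of genotype and surgery was smaller than its standard error. Cry2 was 808.2, 953.8 and 1301 in ONOFF TAC, against 883.3, 1238 and 1748 in ONOFF Sham, and 770.8, 968.5 and 1367 in Con TAC, against 1007, 1075 and 1692 in Con Sham. In ONOFF mice its log2 change with TAC was −0.33 ± 0.11 (0.798-fold, adjusted p = 0.0276, limma), and 9 of 10 libraries lay below the sham mean of their sex. In Con mice the change was −0.22 ± 0.11 with 9 of 10 libraries on the same side, and did not pass (unadjusted p = 0.0489, adjusted p = 0.248). The interaction was −0.10 ± 0.15 (adjusted p = 0.860), so the effects in the 2 genotypes were not shown to differ, and 6 of 10 Con TAC libraries lay below every Con Sham library. The call in ONOFF mice was lost without any 1 of 6 libraries: ONOFF TAC F 3 (adjusted p = 0.0574), F 5 (0.0637) and M 4 (0.0627), and ONOFF Sham F 3 (0.0553), F 5 (0.0795) and M 2 (0.0502). Cry1 was 302.6, 454.4 and 583.0 in ONOFF TAC, against 348.4, 412.3 and 627.1 in ONOFF Sham, and 317.5, 446.2 and 578.4 in Con TAC, against 374.8, 441.3 and 631.7 in Con Sham. Its log2 changes in the 4 comparisons of groups were −0.034 to −0.004, each with a standard error of 0.12. The 95% interval for TAC in ONOFF mice was −0.27 to 0.22, so changes within that range were not excluded.

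The REV-ERB receptors, which repress Bmal1, were lower in most ONOFF TAC libraries without passing. Nr1d1 was 1511, 2543 and 5832 in ONOFF TAC, against 2353, 3887 and 4332 in ONOFF Sham, and 2259, 3513 and 5929 in Con TAC, against 1683, 4158 and 4920 in Con Sham. Of the ONOFF TAC libraries 5 lay below, and 2 above, the whole ONOFF Sham range, and the log2 change was −0.42 ± 0.20 (unadjusted p = 0.0432, adjusted p = 0.141). Nr1d2 was 1273, 1499 and 2779 in ONOFF TAC, against 1008, 2492 and 4100 in ONOFF Sham, and 1140, 1918 and 4136 in Con TAC, against 1120, 2348 and 3217 in Con Sham. Its median was lower, but every ONOFF TAC value lay within the ONOFF Sham range. The log2 change of Nr1d2 was −0.53 ± 0.22 (unadjusted p = 0.019, adjusted p = 0.078). In Con mice the changes were −0.08 ± 0.20 for Nr1d1 and −0.06 ± 0.22 for Nr1d2. Both passed in ONOFF mice without ONOFF TAC F 1 (Nr1d1 −0.55, adjusted p = 0.0251, and Nr1d2 −0.62, adjusted p = 0.0375). Nr1d2 also passed without ONOFF Sham F 4 (−0.69, adjusted p = 0.00894), and without the 3 Con Sham libraries with most genes at 0 (−0.53, adjusted p = 0.0464).

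The Per genes, whose proteins carry the repressor complex into the nucleus, spread widely between libraries of a group. None passed in any comparison with libraries weighted equally. Per1, which also responds to glucocorticoids, was 502.8, 979.7 and 1932 in ONOFF TAC, against 275.4, 771.7 and 2387 in ONOFF Sham. It was 321.7, 1067 and 1437 in Con TAC, against 312.3, 796.9 and 1852 in Con Sham. Its log2 change with TAC was 0.04 ± 0.33 in ONOFF and 0.13 ± 0.33 in Con mice. Per2 was 56.4, 116.2 and 492.5 in ONOFF TAC, against 56.78, 150.8 and 490.1 in ONOFF Sham, and 11.25, 155.8 and 563.9 in Con TAC, against 29.58, 135.2 and 260.8 in Con Sham. The Per2 change in ONOFF mice was −0.33 ± 0.49, and Con TAC held both its lowest library (F 4) and its highest (F 5), 50.1-fold apart. Per3 was 110.8, 186.6 and 479.1 in ONOFF TAC, against 85.20, 312.2 and 580.1 in ONOFF Sham, and 72.14, 226.2 and 477.6 in Con TAC, against 162.5, 227.6 and 662.3 in Con Sham. Its change in ONOFF mice was −0.50 ± 0.30 (unadjusted p = 0.0986, adjusted p = 0.254), with 9 of 10 libraries below the sham mean of their sex. With unequal library weights in limma, Per3 passed there (−0.71, adjusted p = 0.021).

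Counted together, 3 of the 10 genes (Hlf, Tef and Cry2) fell and 0 rose with TAC in ONOFF mice, where 21.2% of all genes tested were called. That share is near the background, so the count by itself does not set the genes apart. The fitted change was negative for 9 of the 10 genes, with a median of −0.39 (log2), against 0.01 over all genes tested, and 6 had an unadjusted p below 0.05, as did 31.8% of all genes. With TAC in Con mice 0 of 10 were called by limma, where 5.78% of all genes were, and 1 of the 10 had an unadjusted p below 0.05 (19.9% of all genes). Leaving out the 5 Con libraries with many zeros or little Xist left that count at 0. For ONOFF minus Con, 0 of 10 passed after TAC (background 7.97%; 2 had an unadjusted p below 0.05, against 20.8% of all genes) and 0 of 10 after sham surgery (background 0.14%; 2 below 0.05, against 8.63%). In the interaction 0 of 10 passed (background 0.445%), and the unadjusted p was below 0.05 for Hlf and Tef and for 11.4% of all genes. Comparisons that share libraries, such as TAC in ONOFF mice and ONOFF minus Con after TAC, are not independent of each other. Nor are the 10 genes, since all 36 pairs among those other than Cry1 correlated positively within groups. The 9 negative changes are therefore not 9 separate results.

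**Figure D2:**
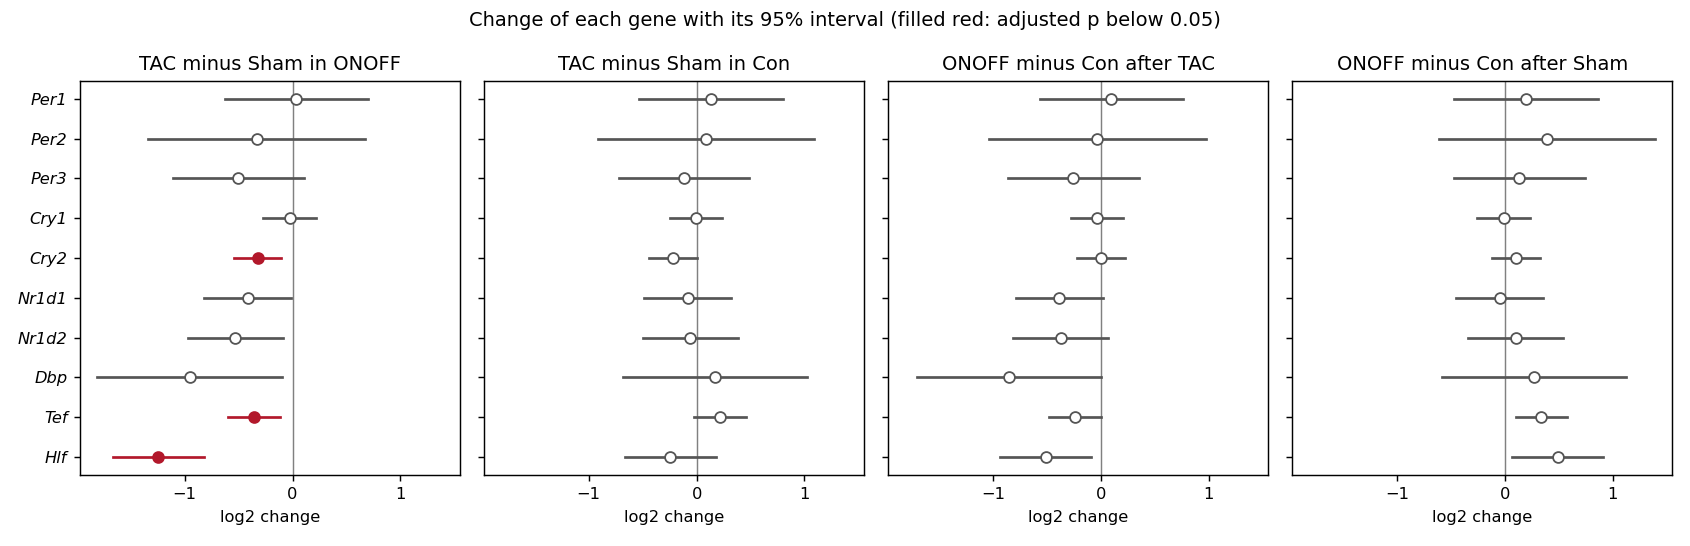
Fitted log2 change of each gene with its 95% interval in 4 comparisons, TAC minus Sham in ONOFF and in Con mice and ONOFF minus Con after TAC and after Sham, with filled red points for an adjusted p below 0.05. Hlf (−1.25), Tef (−0.36) and Cry2 (−0.33) are filled in the first panel, and no gene is filled in the others.

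Females and males did not differ past the threshold in any of the 10 genes. Over the 4 groups, F minus M was called for 0 of 10 genes, where 3.98% of all genes were called, and 1 gene had an unadjusted p below 0.05 (19.2% of all genes). That gene was Hlf, at 0.30 ± 0.15 (unadjusted p = 0.0475, adjusted p = 0.254). In ONOFF TAC it averaged 479.1 ± 216.3 in females and 370.8 ± 56.5 in males (SD, n = 5 each), and the female SD rested largely on F 1. The differences between the sexes in the effects of TAC and of genotype gave 0 calls in the 10 genes and 0% of all genes by limma. None of the 10 had an unadjusted p below 0.05 in those 4 contrasts, while 512 to 862 of all genes did. These fits count as females the 2 libraries labelled Con TAC F that had little Xist. Without them, an alternative added after the values were seen, 0 of the 10 genes were called in any of the 5 contrasts of sex by limma, and 0 had an unadjusted p below 0.05. Hlf was then 0.32 ± 0.16 (F minus M, unadjusted p = 0.0511, adjusted p = 0.282).

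Most of the 10 genes varied more between libraries of the same group than genes of like level. Within groups, the residual SD (log2) was 1.15 for Per2, 0.96 for Dbp, 0.76 for Per1, 0.70 for Per3, 0.51 for Nr1d2, 0.49 for Hlf and 0.47 for Nr1d1. These 7 stood at the 97.2 to 99.8 percentiles of genes with a similar mean level (within 0.5 on the log2 scale), and the median SD over all genes tested was 0.29. Tef (0.27), Cry1 (0.27) and Cry2 (0.25) stood at the 83.3, 62.8 and 71.4 percentiles of genes of similar level. The 8 groups of genotype, surgery and sex accounted for 55.0% of the variance of Hlf, 29.6% for Cry2 and 28.2% for Tef, and for 5.7% (Per2) to 19.5% (Nr1d1) for the other 7. The shares are not corrected for fitting 8 means to 40 libraries, which takes up some variance even without group differences. A low share therefore shows neither an effect of the groups nor the absence of one.

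Bmal1, the activator at the top of the loop, ran opposite to most of these genes, library by library. Its level was 262.1, 776.2 and 1062 in ONOFF TAC, against 150.9, 577.6 and 973.5 in ONOFF Sham, and 185.9, 695.7 and 912.2 in Con TAC, against 495.0, 776.0 and 1146 in Con Sham. The 3 lowest libraries were ONOFF Sham F 5 (150.9), Con TAC F 5 (185.9) and ONOFF TAC F 1 (262.1), from 3 different groups, and the other 37 lay between 372.6 and 1146. In those 3 libraries Dbp was 5205, 3609 and 4762, Tef 4188, 4000 and 3935, and Per2 437.7, 563.9 and 492.5. All 3 ranked among the 5 highest of the 40 libraries for Dbp, Tef, Per2 and Per3. For Hlf, Nr1d2 and Per1 2 of the 3 did, for Nr1d1 and Cry2 1 did, and for Cry1 0 did. Both ONOFF Sham F 5 and Con TAC F 5 carry the number F38 in their names, as do 5 other libraries, and ONOFF TAC F 1 carries F08. Over the 7 libraries with F38, Dbp ran from 389.6 (ONOFF TAC M 5), its lowest value of the 40, to 5205, its highest, and it was 3790 in Con Sham F 5. The estimated correlation between libraries of the same number was 0.46 for Per2 and −0.14 to 0.23 for the other 9 genes. What these numbers stand for is not given, and their part in the low Bmal1 of these libraries was not tested. At the other end, Con Sham F 3 had the highest Bmal1 (1146) with a Dbp of 449.9, and ONOFF TAC F 3 and F 2 had 1062 and 1059 with a Dbp of 403.5 and 419.1. The ratio of Dbp to Bmal1 thus ran from 0.380 to 34.5 over the 40 libraries. Its lowest, median and highest values were 0.380, 1.11 and 18.2 in ONOFF TAC, against 0.583, 3.25 and 34.5 in ONOFF Sham, and 0.890, 2.17 and 19.4 in Con TAC, against 0.393, 1.80 and 6.33 in Con Sham. The ratio compares libraries and not the abundance of the 2 transcripts, since the values are not scaled by transcript length.

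**Figure D3:**
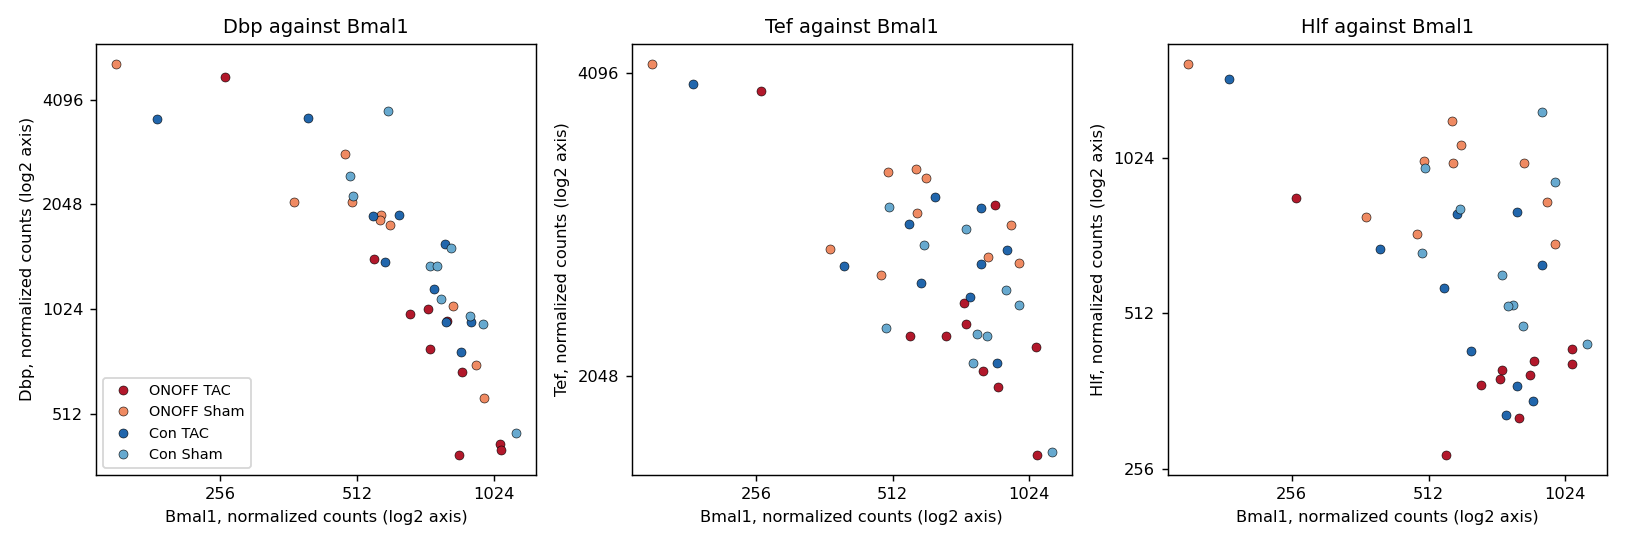
Normalized counts (log2 axes) of Dbp, Tef and Hlf against Bmal1 in the 40 libraries, coloured by group. ONOFF Sham F 5, Con TAC F 5 and ONOFF TAC F 1 sit at the left, at 150.9 to 262.1 Bmal1. Hlf in ONOFF TAC, other than F 1, lies at 272.0 to 435.9, and Bmal1 in those libraries runs from 559.1 (M 3) to 1062 (F 3). ONOFF TAC F 1 has Hlf at 858.4 with Bmal1 at 262.1.

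Correlations between libraries were computed on deviations from the 8 group means, for 55 pairs, with p from 100000 permutations within groups and adjusted over the 55. Dbp against Bmal1 gave the strongest relation (Pearson r = −0.88, Spearman rho = −0.91, each with p = 1e-05, the smallest these permutations can give, and adjusted p = 3.67e-05 and 6.11e-05). It was −0.84 without the 2 libraries farthest from the median of Dbp. Over the 33 libraries that share a number in their names with another, r was −0.87 within those numbers. For the other 8 genes apart from Cry1, r with Bmal1 was −0.82 (Per3) to −0.58 (Hlf), and all passed on Pearson's r. For Hlf, Spearman's rho was −0.36 (adjusted p = 0.0514) and did not pass. All 36 pairs among the 9 genes other than Cry1 correlated positively, from 0.23 (Per1 with Cry2) to 0.85 (Nr1d1 with Dbp), and 34 passed on Pearson's r. On Spearman's rho, which was 0.08 to 0.82 over these pairs, 30 passed. Hlf followed Tef most closely (r = 0.78, rho = 0.72, adjusted p = 3.67e-05 and 6.11e-05), and r was 0.70 without the 2 farthest libraries.

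Cry1 went the other way. It correlated with Bmal1 at r = 0.50 (rho = 0.62, adjusted p = 0.00723 and 5e-04), and with all 9 other genes negatively. Of these, 5 passed: Nr1d1 (−0.74), Dbp (−0.70), Nr1d2 (−0.56), Per3 (−0.53) and Per1 (−0.41). With Tef (−0.37), Per2 (−0.34), Hlf (−0.21) and Cry2 (−0.21), Pearson's r did not pass. On Spearman's rho 6 of the 9 passed. Both CRY genes encode repressors of the same complex, and their levels correlated at −0.21 (adjusted p = 0.244). In all, 49 of the 55 pairs passed on Pearson's r and 45 on Spearman's rho. The share of other gene pairs that would pass was not computed, so these counts by themselves do not set the genes apart. No pair changed sign without the 2 farthest libraries, without the 3 libraries with most genes at 0, or within the numbers of the library names.

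**Figure D4:**
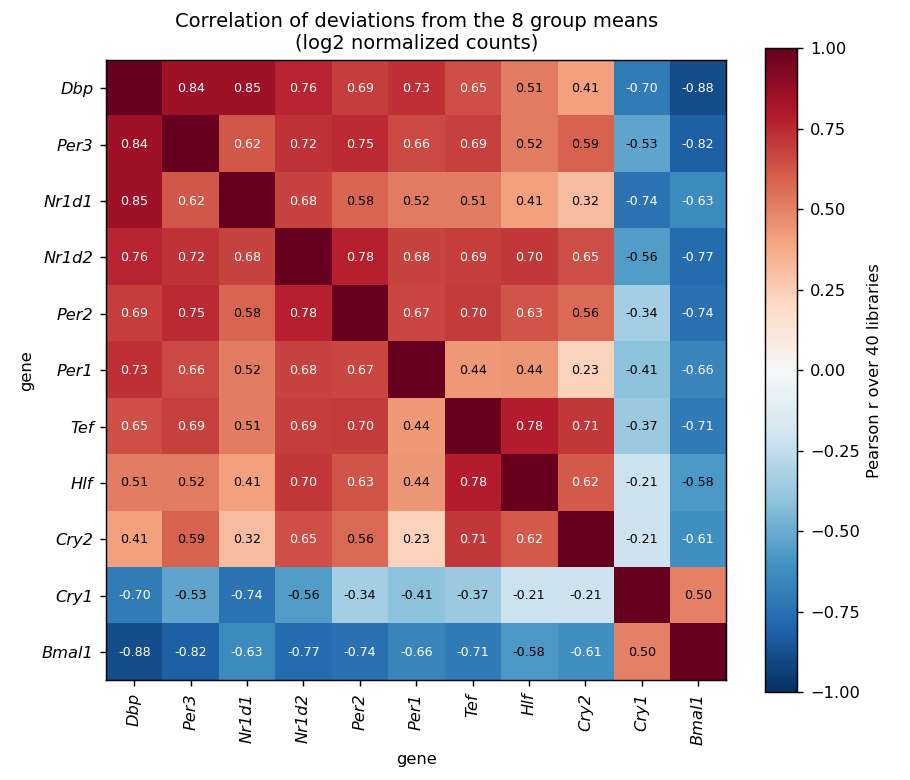
Pearson r between each pair of the 10 genes and Bmal1 over 40 libraries, after each group mean was subtracted on the log2 scale. The block of 9 genes is positive throughout (0.23 to 0.85), and Cry1 and Bmal1 are negative against it and positive (0.50) with each other.

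Among 11119 genes with a mean of at least 100, other than the 10, those most like Dbp by the same within-group r over 40 libraries were Usp2 (0.78), a deubiquitinase known to act on clock proteins, Coq10b (0.78), Slc25a33 (0.74), Rnf207 (0.73) and Mxd1 (0.73). The most opposite were Bmal1 (−0.88), the D-box repressor Nfil3 (−0.88), the partner of BMAL1, Npas2 (−0.81), Leo1 (−0.78) and Spon2 (−0.73). For Per1 the most alike were Tob2 (0.87), Midn (0.78), Fam117b (0.75), Coq10b (0.74) and the potassium channel gene Kcna5 (0.73), and the most opposite was Rrad (−0.76). For Hlf, a ranking added after its values were seen put Smtnl2 (0.74), Spsb1 (0.74) and Fig4 (0.72) at the top and Hexa (−0.75) at the bottom, and no other clock gene was among its 5 most opposite.

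Since the median of Bmal1 was 776.2 in ONOFF TAC and 577.6 in ONOFF Sham, the group changes were also fitted with the log2 level of Bmal1 in each library as a covariate, an alternative added after the values were seen. Hlf still fell with TAC in ONOFF mice (−1.06, adjusted p = 2.07e-05). Tef (−0.23, adjusted p = 0.0603) and Cry2 (−0.23, adjusted p = 0.0859) no longer passed, and Cry2 passed in Con mice (−0.30, adjusted p = 0.0436). Other changes with TAC in ONOFF mice were smaller with this covariate: Dbp −0.41 (adjusted p = 0.157), Nr1d2 −0.28, Nr1d1 −0.23 and Per3 −0.13. ONOFF minus Con after TAC was −0.51 for Dbp. The interaction was −0.68 for Hlf (adjusted p = 0.321), −0.35 for Tef (adjusted p = 0.292) and −0.15 for Dbp (adjusted p = 0.905). Bmal1 itself was not called in any comparison: its change with TAC was 0.41 ± 0.27 in ONOFF mice (adjusted p = 0.319) and −0.32 ± 0.27 in Con mice (adjusted p = 0.562). Bmal1 was measured in the same libraries, after surgery, so a call lost or gained with this covariate does not show its cause. Whether the state of the clock at collection differed between groups was not tested. The numbers in the library names, which the labels do not explain, also moved with the groups, since 4 of the 10 ONOFF TAC libraries shared F15. Only F08 and F38 held both ONOFF TAC and ONOFF Sham libraries. Within F08, ONOFF TAC F 1 was above its sham library for Hlf, by 0.24 on the log2 scale, and for Tef, by 0.61. Within F38, 1 ONOFF TAC library was below the mean of 3 sham libraries by a log2 difference of −1.38 for Hlf and −0.09 for Tef.

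Of 20 other clock genes listed, 19 were tested and Bmal2 was below the filter. With TAC in ONOFF mice 3 rose and 1 fell, a share of 21.1% that is near the 21.2% of all genes. Timeless, a replication fork protein related to the fly clock gene, was 652.0, 820.1 and 965.6 in ONOFF TAC, against 452.3, 565.4 and 785.7 in ONOFF Sham, and 5 of 10 ONOFF TAC libraries lay above all sham libraries. It rose by 0.50 ± 0.11 on the log2 scale (adjusted p = 0.00119). In Con mice the medians of Timeless were 787.7 after TAC and 633.2 after sham surgery. Of the 10 ONOFF Sham libraries, 7 lay below every Con Sham library. Fbxl21, an F-box protein that acts on CRY proteins, rose at a low level, with medians of 25.1 in ONOFF TAC and 8.55 in ONOFF Sham (1.33 ± 0.43, adjusted p = 0.0212). Csnk1d, a kinase of the PER proteins, rose by 0.18 ± 0.06 (adjusted p = 0.0215). Usp2 fell (−0.58 ± 0.16, adjusted p = 0.00705), with 1160, 1609 and 3695 in ONOFF TAC, against 1382, 2427 and 3979 in ONOFF Sham. Those that did not pass included Bmal1, Clock, Npas2, Rora, Rorb, Nfil3, Bhlhe40, Bhlhe41, Ciart, Csnk1e, Btrc, Fbxw11 and Gsk3b, with log2 changes of −0.05 (Rora) to 0.55 (Rorb). With TAC in Con mice 0 of 19 were called by limma, where 5.78% of all genes were. There 5 had an unadjusted p below 0.05, against 19.9% of all genes. The lowest adjusted p was that of the repressor Ciart (0.86 ± 0.31, adjusted p = 0.0917). ONOFF minus Con gave 0 calls of 19 after TAC (7.97% of all genes), with 3 below an unadjusted p of 0.05 (20.8% of all genes). After sham surgery it gave 0 calls (0.14% of all genes), with 1 below 0.05 (8.63%).

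Of 17 genes listed as clock outputs, 7 fell and 1 rose with TAC in ONOFF mice, and the median change was −0.26 (log2). The 8 called were 47.1% of the list, where 21.2% of all genes were called. Those with the smallest p were Dgat2, which makes triglyceride (−0.80 ± 0.15, adjusted p = 7.04e-05), and Klf15, a metabolic regulator that cycles in heart (−0.51 ± 0.11, adjusted p = 0.000406). Klf9 (−0.35 ± 0.09, adjusted p = 0.00597) and the mitochondrial carrier Ucp3 (−1.41 ± 0.38, adjusted p = 0.00636) followed. The gene that rose, named after its value was seen, was the cell cycle inhibitor Cdkn1a (0.89 ± 0.24, adjusted p = 0.00713). In Con mice 1 of the 17 fell, Klf15 (−0.38 ± 0.11, adjusted p = 0.023), and 0 rose, a share of 5.88% against 5.78% of all genes. In ONOFF TAC against Con TAC, Dgat2 (−0.68 ± 0.15, adjusted p = 0.00222) and Nampt, the enzyme of NAD salvage (−0.44 ± 0.12, adjusted p = 0.012), were lower, and Cdkn1a was higher (0.78 ± 0.24, adjusted p = 0.042). The other 14 were not called there, and the 3 called were 17.6% of the list against 7.97% of all genes.

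Per1 and Per2 also answer to glucocorticoids and to immediate early signals, so those genes were counted beside them. With TAC in ONOFF mice 3 of 14 glucocorticoid-responsive genes rose, among them the receptor cochaperone Fkbp5 (0.77 ± 0.24, adjusted p = 0.0154), and 1 fell, Klf9, together 28.6% of the list against 21.2% of all genes. In Con mice 0 of 14 were called by limma (5.78% of all genes), and 0 had an unadjusted p below 0.05 (19.9% of all genes). Of 10 immediate early genes, 4 rose in ONOFF mice, Myc (1.14 ± 0.21, adjusted p = 7.19e-05), Egr3 (1.51 ± 0.35, adjusted p = 0.00136), Atf3 (1.12 ± 0.35, adjusted p = 0.0169) and Junb (0.59 ± 0.21, adjusted p = 0.0441). In Con mice 3 rose, Atf3 (1.53 ± 0.35, adjusted p = 0.00583), Egr3 (1.32 ± 0.35, adjusted p = 0.0183) and Myc (0.77 ± 0.21, adjusted p = 0.0198), while Per1 and Per2 were not called in either genotype. The immediate early genes called, 4 of 10 in ONOFF mice and 3 of 10 in Con mice, stood beside 21.2% (ONOFF) and 5.78% (Con) of all genes.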

How the data were processed

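Stranded libraries were made from bulk left ventricular RNA, per the labels' protocols. Per the submitters' processing notes, the tools were FastQC 0.11.7, MultiQC 0.8, STAR 2.7.3a, Salmon, R 4.3.1 and DESeq2, with GRCm39. The authors deposited normalized count signal, which is not whole, so no raw counts were used and depth and counting intervals are unknown. Groups came from the titles, and all 40 columns were matched.

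The 10 genes, the other gene lists and the marker lists were chosen with earlier results of these data known. Values were taken as log2(value + 1), so changes of low genes are understated. In R 4.3.3, limma 3.58.1 estimated 1 mean for each of 8 groups, with variances moderated robustly along an intensity trend (statmod 1.5.0; data.table, version 1.17.8). Contrasts averaged both sexes, and calls were adjusted p values below 0.05, two-sided. Error bars on changes are standard errors. The fit was tested on simulated data with planted changes.

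The settings varied were the pseudocount (10), the filter (none, or a mean of 50 or more), the scaling (upper quartile, or quantile normalization), unequal library weights, a fit of only the compared groups, a block for the replicate number, a random block for the number in each library's name, and the libraries kept (without each in turn, or without the doubted ones). A Bmal1 covariate, leaving out all 5 doubted libraries together, and the contrasts of sex without the libraries with little Xist were chosen after seeing the data. The rule for named genes took all 10 members, the list of other clock genes, up to 4 genes with the smallest p of each further list, and the 5 genes most like and most opposite to Dbp and Per1. Only the top of each ranking is named for some. A few listed genes are not reported here. Python 3.11.15, numpy 2.4.6, pandas 2.3.3, scipy 1.17.1 and matplotlib 3.10.9 made the correlations and figures.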

Additional observations from a re-analysis of the deposited data

Results flagged for a closer look

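Each gene was checked in each of the 8 groups of 5 libraries for a highest or lowest library set far apart from the rest of its group. Of 80 checks 7 met the rule, where chance gives about 1 in 20, or 4. Per2 in ONOFF TAC F 1 was 492.5, and the next highest library of that group was 122.7. The same library had the lowest Bmal1 of its group. Hlf in ONOFF TAC M 3 was 272.0, with the next lowest at 381.3. Nr1d1 in ONOFF Sham F 4 was 2524, with the next lowest at 3767. In Con TAC, Per1 was 416.1 in F 4, with the next lowest at 1113, and Nr1d2 was 2676 in M 5, with the next highest at 1910. In Con Sham F 3, a library among those with the most genes at 0, Cry1 was 631.7 (next highest 427.1) and Nr1d2 was 1120 (next lowest 2500). What set these libraries apart was not tested.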

How the results depend on the processing

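Of the 50 log2 changes of the 10 genes in 5 contrasts, 22 were at least as large as their standard error. These gave 1161 values under the alternatives, of which 1129 kept direction and side of the threshold. Of the 22, only 3 were called in the report, so for the rest a kept side means that a change stayed uncalled. Of up to 53 alternatives for each, 40 left out 1 library. A library outside the groups compared can change only the shared spread. The other 28 log2 changes were smaller than their error. Under some alternative 26 of those 28 changed sign, and 0 passed. This split was chosen after the alternatives had been seen. With library weights 7 of the 10 genes were called with TAC in ONOFF mice, 3 in ONOFF minus Con after TAC and 2 in the interaction, and 5266, 2355 and 449 of all genes, with 47 in ONOFF minus Con after sham surgery. With Bmal1 as a covariate the interaction of Nr1d1 turned from −0.33 to 0.006, and that of Nr1d2 shrank from −0.47 to −0.025. Genes called in ONOFF minus Con after sham surgery, 23 in the report, were 13 with no filter, 12 with only the groups compared, 14 with the replicate block, 2 without the 3 libraries with most genes at 0 and 4 without all 5 doubted libraries. The interaction, with 73, gave 30 with no filter, 120 after quantile normalization, 32 with the library-name numbers as a random block, and 131, 151 and 441 without the libraries with many zeros, with little Xist, or both. TAC in Con mice, with 948, gave 493 with only the groups compared, and 582 and 614 without the libraries with little Xist or all 5 doubted. The causes were not tested.

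Leaving out each of the 40 libraries gave 1 to 6 of the 10 genes called with TAC in ONOFF mice, 0 to 2 in ONOFF minus Con after TAC and in the interaction, and 0 throughout in the other 2 contrasts. The lowest count, 1, came without ONOFF TAC F 3 or ONOFF Sham F 5, and the highest, 6, without ONOFF TAC F 1. Of all genes, 3113 to 3676 were called with TAC in ONOFF mice, 706 to 1118 in Con mice, 887 to 1591 in ONOFF minus Con after TAC, 3 to 49 after sham surgery and 9 to 252 in the interaction. In these last 2 contrasts, 18 and 28 of the 40 libraries each moved the count by over 1.5 times.

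Libraries with the same replicate number did not deviate together (median r = 0.004, −0.19 to 0.24 over 140 pairs). The median was 0.002 over 560 pairs with other replicate numbers. It was 0.039 over 49 pairs from different groups that shared a number in the library names. Of those 49 pairs 12 were above 0.1, against 23 of the 140 and 69 of the 560. Such correlations cannot show whether mice were paired. With the replicate block 3 of the 10 genes were called with TAC in ONOFF mice and 0 in the other 4 contrasts, and it changed none of the calls of the 10 genes. Of the correlations, 42 to 47 of 55 pairs passed under the 3 alternatives, against 49.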
